A study of Mus musculus with 8 samples.

Results

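The autosomal Zfp genes were the 354 rows of the expression table, of 22744 in all, that lay on chromosomes 1 to 19 and whose symbol was Zfp followed by a number and at most 1 letter. They carried 352 distinct symbols, because Zfp319 and Zfp708 each had 2 Ensembl rows, and 8 Zfp genes on the X chromosome were left out. No expression or binding value entered this rule, though it was chosen with earlier results of these data known. RNA came from whole testes of C57BL/6 mice at postnatal day 8 (P8), with 3 wild-type and 3 Dmrt6 null libraries. The labels name no conditional allele or driver for the null. DMRT6, the protein of the gene listed as Dmrtb1, was located by chromatin immunoprecipitation (ChIP) in adult wild-type testis of C57BL/6 or mixed background. That experiment had 1 ChIP library, made with rabbit antibodies raised against the C-terminal part of DMRT6, and 1 input library. The comparison asks which transcripts depend on DMRT6, a DNA-binding protein of male germ cells, when spermatogonia are differentiating.

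Zfp symbols are given in the mouse to many proteins with zinc fingers, small folds in which cysteines and histidines hold a zinc ion. In most of them several fingers in a row read DNA. Many also carry a Kruppel-associated box (KRAB), which recruits the corepressor TRIM28 and, through it, the histone methyltransferase SETDB1 and heterochromatin proteins. KRAB zinc finger genes arose largely by repeated tandem duplication and silence mobile elements and imprinted sites. Other Zfp genes stand alone, are old and conserved, and work as promoter-binding factors, RNA-binding proteins or developmental regulators.

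The 6 libraries held 23.8 to 29.0 M reads in the table, recovered from the steps of the deposited log2 CPM (counts per 1 M reads of the library). Where 3 values per genotype are given, they follow the replicate numbers 1, 2 and 3. Dmrtb1 read 3.03, 4.12 and 3.21 log2 CPM in the wild-type libraries and -0.88, -0.13 and 0.03 in the null ones. The groups did not overlap, and the difference was -3.78 (SE 0.36), with an adjusted p of 0.0516 in limma, and 7.74e-05 to 0.289 under the alternative settings. Markers of testis cells were present in every library: the Sertoli list summed to between 1760 and 2277 CPM and the germ cell list to between 1085 and 1293 CPM. The germ cell gene Dppa3 was low, at -0.11 log2 CPM with 18 to 35 reads per library, and fell below the 0 log2 CPM needed for testing. Of the 6 tested germ cell genes 5 had a higher null mean and 1 a lower one, with a median difference of 0.20. Kit (0.35, SE 0.13) and Sohlh1 (0.40, SE 0.14) had an unadjusted p below 0.05 in limma, where 3.47% of all tested genes had one. Without null replicate 3 these 2 differed by 0.23 and 0.27, and 0 of the list passed the adjusted threshold. Null replicate 3 stood apart. It was the highest of the 6 libraries for 34.5% of all tested genes and the lowest for 34.0%. In whole-testis RNA, fewer cells of a type and less RNA per cell cannot be told apart. The design text calls the libraries biological replicates, but no label ties them to separate animals, so p-values measure the spread between these samples.

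Zfp transcripts were nearly all present in P8 testis at moderate levels. Of the 354 genes 343 reached a mean of 0 log2 CPM over the 6 libraries, the level needed for testing, and 11 did not. The tested members had a median level of 4.40 log2 CPM, with an interquartile range of 3.48 to 5.44. All 16634 tested genes had a median of 4.76 and a wider interquartile range, 2.86 to 6.11. Levels in CPM are not per transcript length, so they order the genes by reads and not by molecules. The most abundant was Zfp207, a microtubule-binding protein that helps chromosomes align on the spindle, at 8.57 ± 0.04 (wild type) and 8.49 ± 0.17 (null) log2 CPM (SD, n = 3). Zfp292 (8.05), Zfp266 (8.01), Zfp518a (7.88), Zfp106 (7.67) and Zfp644 (7.66 log2 CPM over 6 libraries) followed. Of these 6 only Zfp266 sat in a cluster of Zfp genes, as defined with their positions. Zfp106 encodes an RNA-binding protein. In this order the library ranges of Zfp266 and Zfp518a overlapped, as did those of Zfp106 and Zfp644.

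Zfp genes were concentrated on a few chromosomes and in tandem arrays. Chromosome 7 held 88 of the 354, or 24.9%, while holding 7.71% of the autosomal genes in the table. Chromosome 17 held 43 and chromosome 13 held 36, against 3 on chromosome 19 and 4 on chromosome 3. A cluster was defined as 3 or more members in a chain whose neighbouring 5' ends lay at most 200 kb apart. By that rule 165 members, or 46.6%, lay in 26 clusters of 3 to 20 rows, 48 lay in pairs and 141 stood alone. These are counts of rows: both rows of Zfp708 are in the largest cluster, and both rows of Zfp319 are among the paired. Chromosome 7 had 9 of the clusters with 64 members, and chromosome 17 had 4 with 30. Of the 139 neighbouring pairs inside clusters 86, or 61.9%, ran on the same strand.

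The largest cluster lay on chromosome 13 from 67139530 to 67927937 (mm9) and ran from Zfp712 to Zfp273, with 20 rows, 16 of them on the minus strand. Its levels ran from the detection floor to well above the family's median. Zfp457, with 6, 8 and 4 reads in the wild-type libraries and 5, 9 and 4 in the null ones, was the lowest. Zfp748, at 5.92, 5.94 and 5.96 log2 CPM in wild type and 5.87, 6.09 and 5.68 in null, was the highest. The next was on chromosome 7 from 30553571 to 30954746, Zfp84 to Zfp146, with 14 genes from Zfp382 at 2.48 to Zfp260 at 6.89 log2 CPM over 6 libraries. A cluster of 12 on chromosome 17 from 32908181 to 33531586 ran from Zfp871 at 5.48 to Zfp101 and had Zfp811 as its lowest gene at 2.12. The other cluster of 12, on chromosome 7 from 24866943 to 25372660, ran from Zfp180 at 5.66 to Zfp575 at 0.08. Within each of these 4 arrays the highest and lowest gene differed by more than 3 log2 units of CPM. The median SD of a tested member over the 6 libraries was 0.18, beside 0.21 for all tested genes. Neighbours in such arrays can be near-identical copies, and no source used here says how reads that fit several copies were counted, so levels of single genes in arrays are uncertain.

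**Figure D1:**
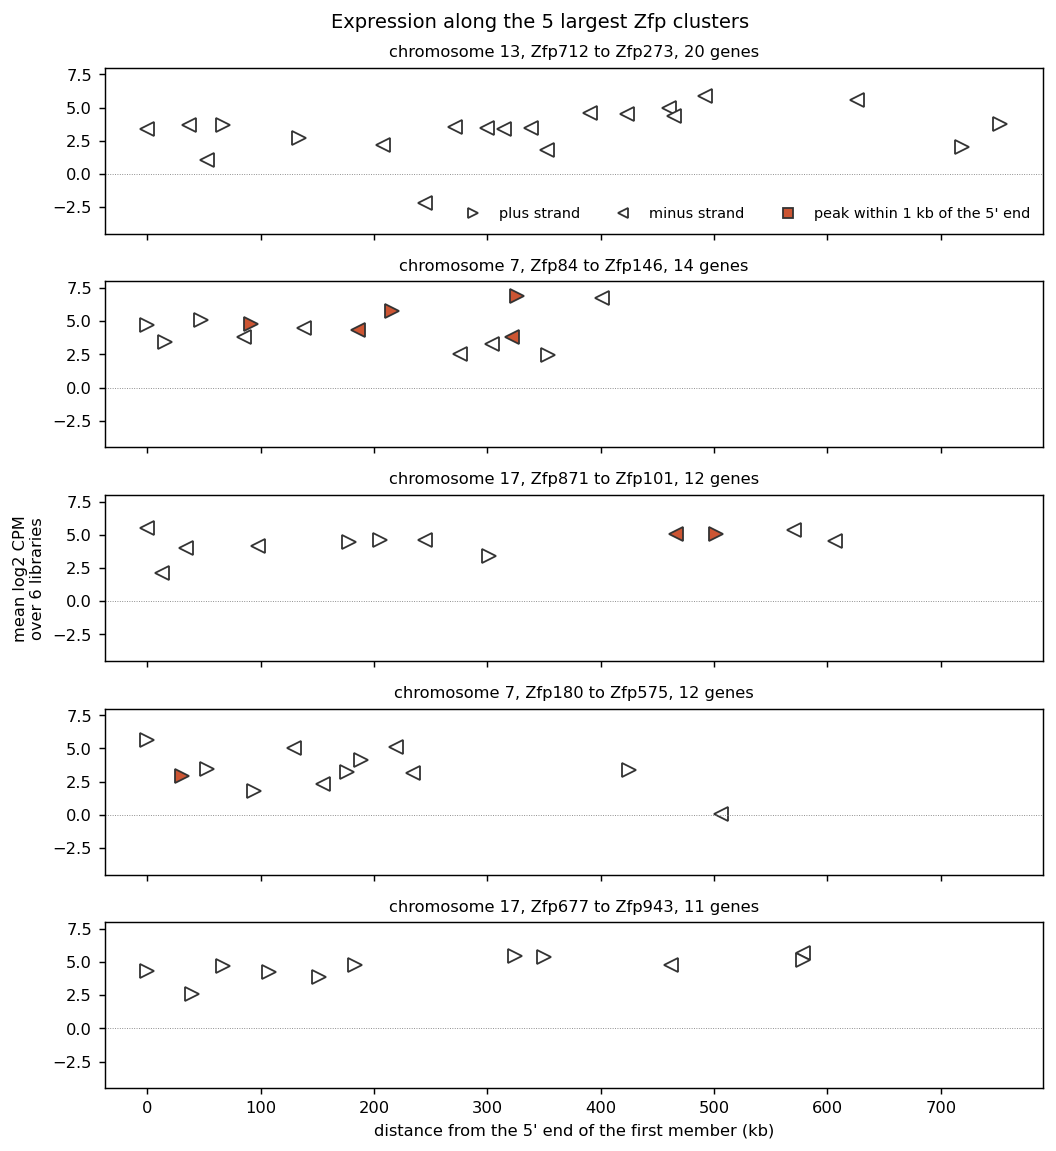
The 5 clusters with most Zfp genes, with mean log2 CPM over the 6 P8 libraries on the vertical axis and distance in kb from the 5' end of the first gene on the horizontal axis; triangles point along the gene's strand and filled ones have a DMRT6 peak within 1 kb of the 5' end. Levels run from -2.16 to 6.89, and filled symbols number 0, 5, 2, 1 and 0 from top to bottom.

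Promoters of many clustered members shared a short run of letters that the selection by symbol did not use. RefSeq promoter windows (GRCm38.p6, 250 bases before to 50 after the first listed start) matched 294 of the 354 members, in 292 distinct windows. The letters ACTACA, any 2 bases and TCCC, searched on both strands, stood in 50 of the 292, or 17.1%, against 3.73% of the 12625 windows of autosomal genes in the table and 2.05% of all 25748 autosomal windows. The share was 27.3% in clustered members (39 of 143), 15.8% in paired (6 of 38) and 4.50% in lone members (5 of 111). The letters were picked after the sequences had been seen, and genes of an array may descend from common copies, which was not examined. These shares are therefore a description and not a test. ACTACA with TCCC after it also opens the known binding element of ZFP143, a promoter-bound zinc finger protein of this same family. A match is not a binding site. Up to 3 members from each of the 4 largest clusters, taken in order of position where the match and its flanks lay before the start, are shown on the strand that holds the letters, with the fixed letters in capitals.
Zfp712, chr13:67061205-67061244, plus strand: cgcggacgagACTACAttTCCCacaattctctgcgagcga
Zfp759, chr13:67128158-67128197, minus strand: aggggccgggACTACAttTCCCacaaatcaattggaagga
Zfp455, chr13:67194432-67194471, minus strand: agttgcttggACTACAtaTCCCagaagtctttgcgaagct
Zfp84, chr7:29768511-29768550, minus strand: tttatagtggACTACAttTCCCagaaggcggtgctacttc
Zfp790, chr7:29815950-29815989, minus strand: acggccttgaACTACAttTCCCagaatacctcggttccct
Zfp940, chr7:29853664-29853703, plus strand: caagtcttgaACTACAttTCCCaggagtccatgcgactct
Zfp180, chr7:24081856-24081895, minus strand: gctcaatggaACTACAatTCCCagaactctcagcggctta
Zfp112, chr7:24112247-24112286, minus strand: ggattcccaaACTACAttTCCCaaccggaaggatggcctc
Zfp111, chr7:24208192-24208231, plus strand: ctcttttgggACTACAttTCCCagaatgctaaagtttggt

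The 9 stretches came from 3 of the 4 arrays, since the large chromosome 17 array had no match. They share more than the capitals: all 9 go on with a after TCCC, 6 of them with ag, and 7 have tt as the free bases. The element was frequent in some arrays and absent from others. It was found in 15 of 17 matched promoters of the chromosome 13 array. On chromosome 7 it was in 9 of 13 from Zfp84 to Zfp146 and in 6 of 10 from Zfp180 to Zfp575. In the chromosome 11 array of 6 genes it was in all 4 matched promoters, those of Zfp2, Zfp354b, Zfp454 and Zfp879. Zfp354a and Zfp354c of that array had no window and were not searched. In the 4 chromosome 17 arrays the element was in 0 of 11, 0 of 10, 0 of 4 and 0 of 3. In the chromosome 6 array from Zfp786 it was in 0 of 8. A match lay within the 100 bases before the start in 40 of the 50 member windows that held one. Among the clustered members 35 of 42 matches stood on the strand opposite to the gene, against 207 of 543 over the autosomal genes of the table. Clustered promoters were also poorer in CpG, with a median of 12 CG dinucleotides in 300 bases, than lone ones, with 18, the same as the autosomal genes of the table.

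**Figure D2:**
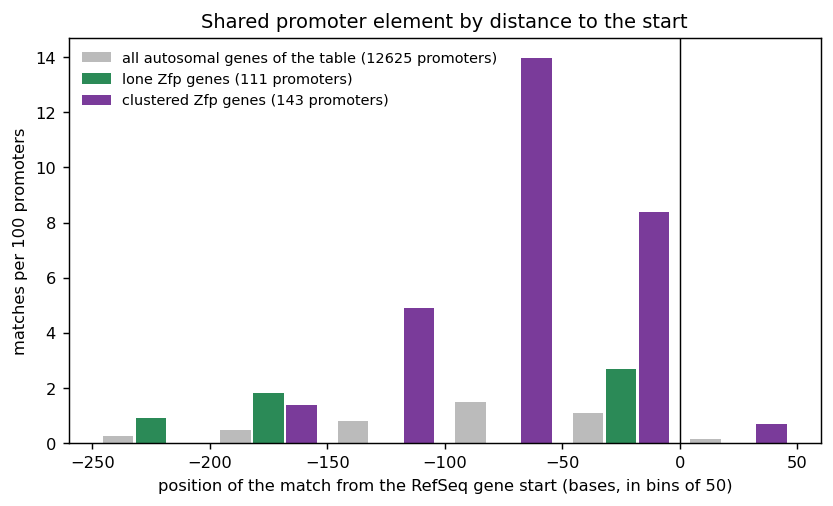
Matches to the shared element per 100 promoter windows, in bins of 50 bases from the RefSeq start (0), for all autosomal genes of the table, lone Zfp genes and clustered Zfp genes. Of the 42 matches in clustered members 20 fall between 100 and 50 bases before the start and 12 in the last 50.

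No Zfp gene passed the threshold between the genotypes. In limma with Benjamini-Hochberg adjustment over all 16634 tested genes, 0 of the 343 members had an adjusted p below 0.05, where 0.00601% of all tested genes did. The smallest adjusted p of a member was 0.755. An unadjusted p below 0.05 was found for 4 members, or 1.17%, where 3.47% of all tested genes had one. Of the 4, 2 were higher in null and 2 lower, where 1.63% and 1.85% of all tested genes were. Differences were small. The median difference, null minus wild type, was 0.00 log2 CPM, against 0.01 over all tested genes, and it ran from -0.62 (Zfp366) to 0.62 (Zfp628). The estimate was above 0 for 174 members and below 0 for 169, and above 0 for 203 without null replicate 3. For 316 of the 343 the 95% interval of the difference lay within 1 log2 unit of 0 on either side, so larger changes lay outside the interval for these genes. The 3 null libraries lay wholly above the 3 wild-type libraries for 17 members (4.96%, against 5.06% of all tested genes) and wholly below for 16 (4.66%, against 6.02%). Both shares were close to the background. Leaving out null replicate 2 took the 4 with an unadjusted p below 0.05 to 39 (11.4%, beside 15.3% of all tested genes). Leaving out wild-type replicates 1, 2 and 3 took them to 0, 1 and 2, where 1.61%, 2.92% and 1.47% of all tested genes had such a p. Leaving out null replicate 1 gave 2 (0.583%, beside 4.08%). The count of members past the adjusted threshold was 0 in each of these fits.

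The smallest p with a higher null mean belonged to Zfp82 (ENSMUSG00000058447, chromosome 7, 30841057 to 30857842, minus strand), a gene of the array from Zfp84 to Zfp146. It read 3.07, 3.08 and 3.16 log2 CPM in the wild-type libraries and 3.39, 3.55 and 3.58 in the null ones. Every null library was above every wild-type library, with a difference of 0.40 (SE 0.15), unadjusted p = 0.0268 and adjusted p = 0.755 in limma. The reads behind it were 200, 247 and 246 against 275, 322 and 307. Zfp800, a lone gene on chromosome 6, was at 5.22, 5.25 and 5.14 in wild type and 5.39, 5.50 and 5.44 in null, again without overlap, a difference of 0.24 (SE 0.10). Zfp697 (0.54, SE 0.24), Zfp287 (0.27, SE 0.12), Zfp12 (0.22, SE 0.10), Zfp219 (0.55, SE 0.26), Zfp213 (0.43, SE 0.20) and Zfp238 (0.24, SE 0.12) completed the 8. Zfp238 encodes a transcriptional repressor best known from the developing brain. The size of the Zfp219 difference rested on 1 library: null replicate 3 was at 6.43 and null replicates 1 and 2 were at 5.50 and 5.38. Without null replicate 3 the difference was 0.22, with the same sign. Zfp213 likewise had null replicate 3 at 4.02 against 3.41 and 3.46, and differed by 0.23 without it. Zfp238 differed by 0.16 without wild-type replicate 1.

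Among the 8 of smallest p with a lower null mean, 6 lay in clusters and 4 of these on chromosome 17. Of all 343 tested members 163 lay in clusters, and chromosome 17 held 30 of the 165 clustered members. Zfp948 (ENSMUSG00000067931, chromosome 17, 21704010 to 21725664, plus strand) read 4.996, 4.998 and 4.843 in the wild-type libraries and 4.72, 4.70 and 4.53 in the null ones. The groups did not overlap, and the difference was -0.30 (SE 0.12), with unadjusted p = 0.0377 and adjusted p = 0.755 in limma. Zfp763 in the other large chromosome 17 array was at 4.82, 4.63 and 4.79 in wild type and 4.46, 4.53 and 4.39 in null, also without overlap, a difference of -0.29 (SE 0.12). Zfp820 differed by -0.35 (SE 0.16) and Zfp81 by -0.32 (SE 0.15). On chromosome 7 Zfp719 differed by -0.25 (SE 0.12) and Zfp28 by -0.31 (SE 0.16). The lone genes Zfp367 and Zfp386 differed by -0.22 (SE 0.11) and -0.26 (SE 0.14). Without null replicate 3, Zfp820, Zfp81 and Zfp386 differed by -0.20, -0.18 and -0.13, and without wild-type replicate 1 Zfp28 differed by -0.18. None of the 8 passed the adjusted threshold.

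**Figure D3:**
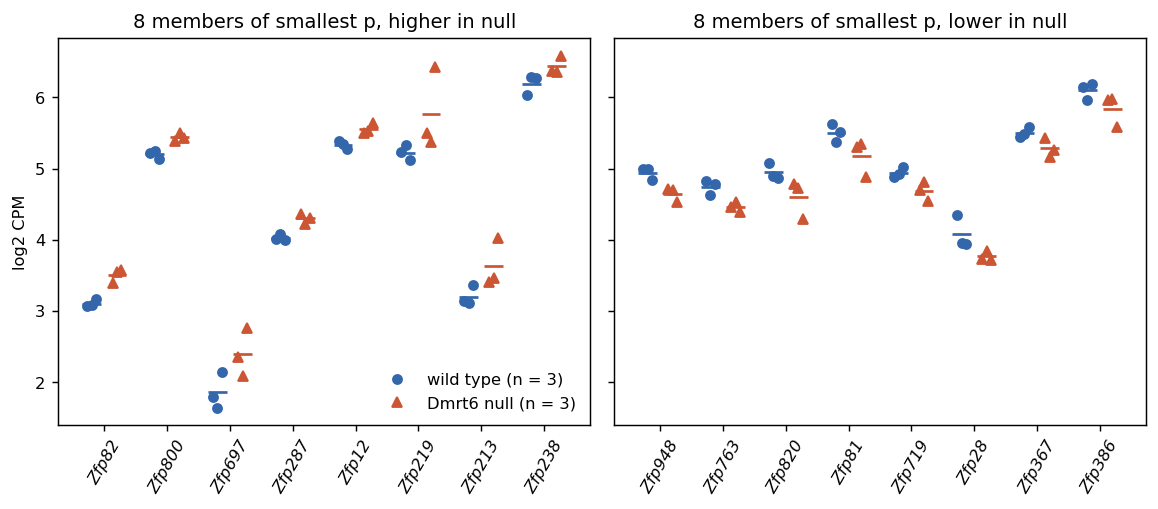
Log2 CPM of the 8 tested Zfp genes of smallest unadjusted p in each direction, with wild-type libraries as circles, null libraries as triangles and short lines at the mean of 3. Zfp82 has null libraries at 3.39, 3.55 and 3.58 above wild-type libraries at 3.07, 3.08 and 3.16, and none of the 16 genes passed the adjusted threshold.

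Members of the 2 large chromosome 17 arrays had estimates on 1 side. In the array from Zfp871 to Zfp101 all 12 were below 0, with a median of -0.15, and in that from Zfp677 to Zfp943 (chromosome 17, 21520712 to 22208135), singled out after its values were seen, all 11 were below 0 with a median of -0.21. These estimates moved with null replicate 3. Relative to each gene's mean over 6 libraries, the medians for Zfp871 to Zfp101 were 0.15, -0.01 and 0.14 in the wild-type libraries and 0.05, 0.08 and -0.38 in the null ones. Those for Zfp677 to Zfp943 were 0.20, 0.01 and 0.08 in the wild-type libraries and -0.04, 0.02 and -0.27 in the null ones. Without null replicate 3 the first array had 6 genes above 0 and a median of -0.00043, and the second had 1 above 0 and a median of -0.06. In the chromosome 6 array from Zfp786, 7 of 8 were above 0 with a median of 0.13, which became 0.04 without that library. The chromosome 13 array, with 8 of 19 tested rows above 0 and a median of -0.04, had 16 above 0 and a median of 0.07 without it.

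Clustered and lone members differed in where null replicate 3 stood. In null replicate 3 the median clustered member stood -0.13 from its own 6-library mean, the median paired member -0.13 and the median lone member 0.08, while all tested genes stood at -0.02. In the other 5 libraries the medians of the clustered members ranged from -0.03 to 0.05 and those of the lone members from -0.03 to 0.01. Null replicate 3 was the lowest of the 6 libraries for 81 of 163 clustered members (49.7%) and the highest for 29 (17.8%). For the 133 lone members it was the lowest for 45 (33.8%) and the highest for 54 (40.6%), where the shares over all tested genes were 34.0% and 34.5%. In null replicates 1 and 2 the clustered medians were 0.03 and 0.02. The median genotype difference of the clustered members was -0.03 with this library and 0.03 without it. For the lone members it was 0.02 and 0.02. Marker lists of other cells differed between libraries beside this. The red blood cell list summed to 1146, 1310 and 1381 CPM in wild type and 988, 908 and 553 in null, without overlap and lowest in null replicate 3. All 3 of its genes were lower in null with an unadjusted p below 0.05 in limma, a median of -0.66 and 0 past the adjusted threshold. The Sertoli list summed to 2243 CPM in null replicate 3 and to 2277 and 1760 in null replicates 1 and 2, and the Leydig list to 365 and to 479 and 415. The Sertoli sum was weighted by its most abundant gene, Clu, at 10.57 log2 CPM in null replicate 3 and 10.51 to 10.84 in the other libraries. Sox9 (6.81), Amh (7.32), Wt1 (7.64) and Gata4 (7.95 log2 CPM) were each highest in null replicate 3. The part of these marker lists in the result was not tested.

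**Figure D4:**
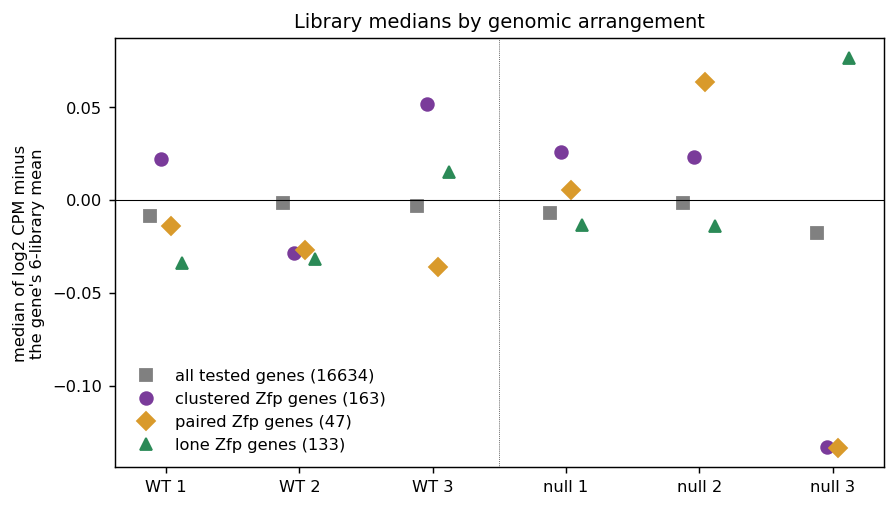
Median of log2 CPM minus the gene's 6-library mean, per library, for all tested genes and for clustered, paired and lone Zfp genes (numbers of genes in the legend). Null replicate 3 is the lowest point for clustered and paired genes, both at -0.13, and the highest for lone genes, at 0.08.

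The members whose levels varied most across the 6 libraries were low in abundance, and 2 of them are germ cell genes. Zfp541, which encodes a meiotic chromatin protein of spermatocytes, was at 1.52, 1.95 and 1.45 in wild type and 1.46, 1.79 and 3.14 in null. Only null replicate 3 was high, and without it the difference of 0.49 became -0.02. Zfp628, needed in post-meiotic male germ cells, was at 2.55, 2.72 and 2.18 in wild type and 2.89, 2.43 and 3.99 in null, with 0.18 in place of 0.62 without null replicate 3. Zfp366 was at 0.24, 0.53 and 0.62 in wild type and -0.53, -0.85 and 0.91 in null. Here null replicates 1 and 2 were below all wild-type libraries and null replicate 3 above them, and without null replicate 3 the difference of -0.62 became -1.16. Zfp750, a regulator of skin differentiation, was at 0.24, -0.16 and 0.23 in wild type and 0.05, 1.17 and -0.67 in null, with no order between the groups.

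The members with known roles in germ cells, Zfp541 included, did not pass the threshold. In the list of 9 germ cell and testis genes, 5 estimates were above 0 and 4 below, 0 passed, and the median was 0.00, beside 51.7% of all tested genes with an estimate above 0. Without null replicate 3 the list had 6 above 0 and a median of 0.02. Zfp148, a Kruppel-type factor needed for germ cell development, was at 7.62 ± 0.04 (wild type) and 7.56 ± 0.15 (null) log2 CPM (SD, n = 3). Zfp318, first described as a testicular zinc finger gene, was at 6.33 ± 0.10 (wild type) and 6.56 ± 0.31 (null) log2 CPM (SD, n = 3), and the higher null mean came from null replicate 3 at 6.90. Zfp37, a KRAB gene known from spermatids, was at 4.44, 4.34 and 4.40 in wild type and 4.45, 4.74 and 3.74 in null, and null replicate 3 was the lowest: its difference of -0.08 became 0.20 without that library. Zfp35 was at 5.43 ± 0.15 (wild type) and 5.43 ± 0.20 (null) log2 CPM (SD, n = 3) and Zfp105 at 5.16 ± 0.05 (wild type) and 5.09 ± 0.16 (null) log2 CPM (SD, n = 3). Zfp583 (3.93) and Zfp819 (1.77 log2 CPM over 6 libraries) differed by 0.02 (SE 0.15) and -0.19 (SE 0.24), and by -0.02 and -0.03 without null replicate 3.

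Of the 5 imprint and pluripotency genes 2 estimates were above 0, 3 were below and 0 passed, and without null replicate 3 3 were above 0. Zfp57 and Zfp445, KRAB proteins that keep methylation at imprinted sites, differed by -0.02 (SE 0.13) and -0.03 (SE 0.12), and Zfp445 by 0.08 without null replicate 3. Zfp445 was at 6.69 ± 0.04 (wild type) and 6.65 ± 0.20 (null) log2 CPM (SD, n = 3), and Zfp57 was at 4.44 ± 0.08 (wild type) and 4.42 ± 0.15 (null) log2 CPM (SD, n = 3). Zfp42, the pluripotency marker also called Rex1, was at 1.98, 2.41 and 2.26 in wild type and 2.17, 1.79 and 2.25 in null, and the groups overlapped. Zfp281 differed by 0.17 (SE 0.10) and had all 3 null libraries (6.60, 6.54 and 6.68) above the wild-type ones (6.32, 6.52 and 6.45). Zfp296 was near the lower end at 1.13 log2 CPM. Zfp36 encodes tristetraprolin, which binds and destabilises AU-rich messenger RNAs and is itself an immediate early gene. It was at 3.17, 2.82 and 2.44 in wild type and 2.87, 3.35 and 3.26 in null, with overlap and a difference of 0.35 (SE 0.23). The immediate early genes Junb, Fos and Egr1 differed by 1.27 (SE 0.25), 0.92 (SE 0.48) and 0.54 (SE 0.24). Egr1 differed by 0.30 without null replicate 3, and none of these genes passed the adjusted threshold.

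Among 10 promoter and chromatin-binding members 9 estimates were above 0 and 0 passed, with a median of 0.17. The summed level of the list was 663 CPM in null replicate 3 and 439 to 495 in the other 5 libraries. Without that library 5 of 10 estimates were above 0 and the median was 0.00. Zfp335, part of a histone methyltransferase complex, was at 3.83, 4.05 and 3.78 in wild type and 4.13, 3.85 and 5.29 in null, and without null replicate 3 its difference of 0.53 became 0.10. Zfp217 went from 0.28 to 0.04 in the same way. Zfp143 was at 5.07, 5.15 and 5.22 in wild type and 5.05, 5.01 and 4.93 in null, with all null libraries below all wild-type ones, a difference of -0.15 (SE 0.11) and unadjusted p = 0.201 in limma. Zfp263, Zfp161 and Zfp518b differed by 0.11 (SE 0.11), 0.02 (SE 0.11) and 0.12 (SE 0.14), and Zfp462 by 0.08 (SE 0.17). Without null replicate 3 these 4 became 0.01, -0.02, -0.01 and -0.09. In the 5 adipose and mesenchyme genes 3 were above 0 and 0 passed. Null replicate 3 held the highest summed level, 164 CPM, where the other 5 libraries held 86.9 to 104, and without it 2 were above 0. Zfp521 differed by -0.38 (SE 0.20), Zfp423, a commitment factor of fat precursors, by -0.02 (SE 0.28), Zfp467 by 0.10 (SE 0.22), Zfp516 by 0.41 (SE 0.28) and Zfp703 by 0.41 (SE 0.31). Without null replicate 3 these became -0.34, -0.32, -0.13, 0.04 and 0.07. The 3 adipocyte markers were all lower in null, 2 with an unadjusted p below 0.05 in limma and 0 past the adjusted threshold, with a median of -2.19. Their summed level was 76.8, 17.4 and 47.2 CPM in wild type and 10.6, 13.9 and 21.1 in null, and their part in the values of these 5 genes was not tested.

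The 6 RNA, ribosome and spindle members had 4 estimates above 0, 5 without null replicate 3, and 0 passed. Zfp598, a ubiquitin ligase that marks colliding ribosomes, was at 5.29, 5.57 and 5.17 in wild type and 5.35, 5.38 and 6.38 in null, where null replicate 3 was again apart, and differed by 0.02 without it. Zfp622, a factor of ribosome assembly, differed by 0.33 (SE 0.17), or 0.15 without that library, and Zfp326 and Zfp346 by -0.09 (SE 0.11) and 0.10 (SE 0.10). The list of 5 embryo patterning and KRAB members had 4 estimates above 0, with and without null replicate 3, and 0 passed. Zfp809, which silences retroviral sequences in embryonic cells, was at 4.44 ± 0.05 (wild type) and 4.47 ± 0.24 (null) log2 CPM (SD, n = 3), and Zfp568, a regulator of placental Igf2, at 5.73 ± 0.05 (wild type) and 5.76 ± 0.06 (null) log2 CPM (SD, n = 3). Zfp932 and Zfp640 differed by 0.00 (SE 0.12) and 0.18 (SE 0.20). The KRAB cofactors were abundant and did not pass either. Of the 18 tested rows of that list, which stand for 17 genes because Atf7ip has 2, 10 estimates were above 0, 8 below and 0 passed, with a median of 0.01. Trim28 was at 7.38, 7.63 and 7.12 in wild type and 7.59, 7.29 and 8.44 in null, and its difference of 0.40 (SE 0.28) became 0.07 without null replicate 3. Setdb1 differed by 0.21 (SE 0.12), or 0.09 without that library, and Cbx5, a heterochromatin protein gene, by -0.07 (SE 0.10), or 0.02. The de novo methyltransferase gene Dnmt3b had the only unadjusted p below 0.05 of the list, 0.0489 in limma, at 0.56 (SE 0.24) and 0.27 without null replicate 3.

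DMRT6 peaks lay at the starts of 61 Zfp genes in adult testis. A member counted as bound when the middle of a peak lay within 1 kb of its 5' end, which was taken as the start of a plus-strand gene and the end of a minus-strand gene. The 61 were 17.2% of the 354 (exact 95% binomial interval 13.4 to 21.6, for counting error only), beside 13.5% of all 21487 autosomal genes. All 61 were tested genes, or 17.8% of 343, beside 16.8% of tested autosomal genes. Within 10 kb there were 105 bound members, 29.7%, beside 29.3%. Within 500 bp there were 54 (15.3%, 11.7 to 19.4), beside 11.2% of autosomal genes, and with scores of at least 100 there were 30 (8.47%, 5.79 to 11.9), beside 5.49%. The intervals of these last shares lay above the share of all autosomal genes, while those within 1 kb and 10 kb included it. Among tested genes only, the members had 15.7% within 500 bp (12.1 to 20) and 8.75% with scores of at least 100 (5.98 to 12.3), and both intervals included the shares of all tested autosomal genes, 14.1% and 6.75%. With 1 ChIP and 1 input library there is no replicate check on a peak, and the adult testis holds germ cell stages that the P8 testis lacks.

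The bound share was higher among genes of higher level at P8, in the members as in other genes. In 5 equal groups of the tested autosomal genes by mean log2 CPM, bound members were 5 of 41 in the lowest, 12 of 109, 16 of 94, 18 of 69 and 10 of 30 in the highest. These were 12.2%, 11.0%, 17%, 26.1% and 33.3%, beside 6.37%, 10.7%, 17.6%, 23.2% and 26.0% of all tested autosomal genes. The exact 95% binomial interval of each member share included the share of all genes. Bound members had a median level of 5.08 log2 CPM and the other 293 one of 4.18.

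**Figure D5:**
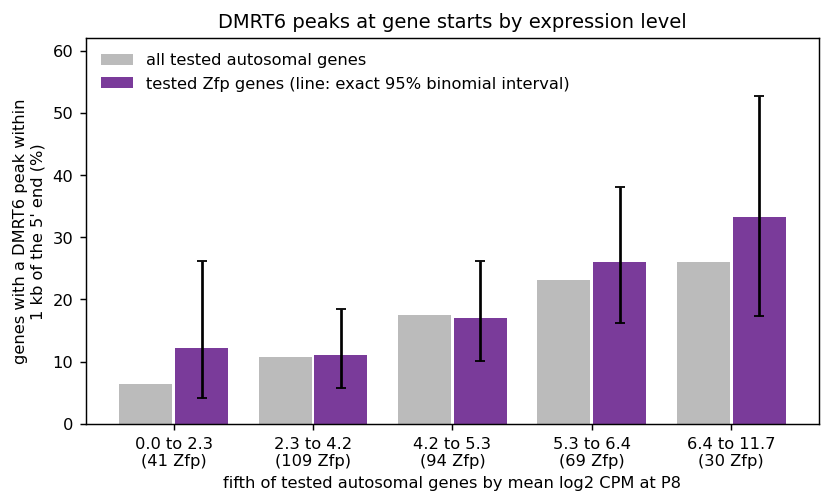
Percent of genes with a DMRT6 peak within 1 kb of the 5' end, in 5 equal groups by mean log2 CPM at P8, for all tested autosomal genes and for tested Zfp genes, with exact 95% binomial intervals on the latter. The Zfp bars run from 11.0% to 33.3%, and each interval spans the grey bar beside it.

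Bound members numbered 30 of 141 lone ones (21.3%, exact binomial interval 14.8 to 29.0) and 23 of 165 clustered ones (13.9%, 9.05 to 20.2), and the intervals overlapped. Paired members had 8 of 48. Lone members also had the higher levels, a median of 5.07 log2 CPM against 4.01 in clusters. Of the 26 clusters 13 had no bound member, and 9 had no peak within 10 kb of any member's 5' end. The chromosome 13 array was among these 9, with 0 of 20 rows. No source used here says how ChIP reads that fit several copies were placed, so a missing peak in an array is uncertain. The array from Zfp84 to Zfp146 had 5 bound genes, Zfp74, Zfp260, Zfp383, Zfp566 and Zfp568, and the array from Zfp871 to Zfp101 had Zfp955a and Zfp955b.

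Scores at Zfp starts had about the median of the whole peak list. A score is the authors' own value per peak, on a scale that no header states. The median of the best peak per member was 94.6, beside 87.8 for all 2909 bound autosomal genes, in a list of peaks whose lowest score was 50.02 and whose median was 94.7. Only 10 members had a peak above 200. Zfp341, whose human counterpart activates STAT3, stood far above the rest: its peak (chromosome 2, 154438940 to 154439543, mm9) had a score of 2720 and ranked 10th of 14862, and its middle lay 208.5 bp inside the gene (154439033 to 154472557, plus strand). Zfp106 followed at 596 (120389819 to 120390165 on chromosome 2, 413 bp upstream), then Zfp260 at 585 (chromosome 7, 30879444 to 30879876, 136 bp upstream) and Zfp384 at 416 (chromosome 6, 124959198 to 124959767, 319.5 bp inside). Zfp143 (330), Zfp661 (297), Zfp191 (278) and Zfp523 (278) completed the 8 highest scores. The peaks of 7 members also lay within 1 kb of the 5' end of another gene, among them Mrps5 beside Zfp661 and Mrpl50 beside Zfp189, so they cannot be given to 1 gene. Peak middles were upstream of the 5' end in 35 members and inside the gene in 26, within 200 bp of it in 63.9% of the bound members and 54.9% of all bound autosomal genes.

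The 4 members with the highest peak scores are shown by the 200 bases before their RefSeq start (GRCm38.p6), as the promoter letters of the most strongly bound members. Capitals mark matches on either strand to ACANTGT, the core of the element bound by DMRT proteins, to ACTACA, or to AANATGGC, the core of the element of the zinc finger protein YY1. The peaks are placed in mm9 and the windows in another build. By their distances to the 5' end, the peak middles of Zfp341, Zfp106 and Zfp384 lay outside the 200 bases before it.
Zfp341, chr2:154613168-154613367, plus strand: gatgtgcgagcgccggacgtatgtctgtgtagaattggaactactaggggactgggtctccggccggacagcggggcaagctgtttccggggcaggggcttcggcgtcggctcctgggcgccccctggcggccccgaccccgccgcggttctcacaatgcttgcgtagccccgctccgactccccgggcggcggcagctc
Zfp106, chr2:120563860-120564059, minus strand: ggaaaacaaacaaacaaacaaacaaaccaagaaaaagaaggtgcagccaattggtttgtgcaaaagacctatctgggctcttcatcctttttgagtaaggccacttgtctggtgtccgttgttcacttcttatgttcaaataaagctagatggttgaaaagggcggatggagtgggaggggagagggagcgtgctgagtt
Zfp260, chr7:30094876-30095075, plus strand: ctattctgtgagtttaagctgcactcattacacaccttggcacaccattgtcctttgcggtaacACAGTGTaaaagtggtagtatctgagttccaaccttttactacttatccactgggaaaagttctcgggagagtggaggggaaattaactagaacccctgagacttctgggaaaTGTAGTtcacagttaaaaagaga
Zfp384, chr6:125008926-125009125, plus strand: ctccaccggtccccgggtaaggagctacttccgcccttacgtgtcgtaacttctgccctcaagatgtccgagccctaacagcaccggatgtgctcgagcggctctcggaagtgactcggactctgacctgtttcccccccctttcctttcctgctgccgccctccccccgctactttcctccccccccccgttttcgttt

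Of the 4 only Zfp260 held marked letters: ACANTGT starting 136 bases before the RefSeq start and ACTACA on the other strand starting 23 bases before it. Over all windows ACANTGT was no more common at bound members (1 of 49) than at the other members (9 of 243), at bound autosomal genes (4.42%) or at all autosomal genes of the table (4.40%). This says only that the letters were rare in these windows. AANATGGC stood in 12 of 49 bound members (24.5%) and 28 of 243 others (11.5%), and in 11.3% of bound autosomal genes and 7.36% of all autosomal genes of the table. The longer element of the arrays was in 7 of 49 bound members and 43 of 243 others. The GC box letters GGGCGG were in 45.2% of member windows and 58.3% of those of the autosomal genes of the table, and CCAAT in 45.9% and 37.8%. All were searched on both strands, and ACTACA lies within the longer element. Matches to ACANTGT and ACTACA shared bases in 51 of the 25748 windows, and GGGCGG and CCAAT in 88.

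Of the 61 bound members 0 had an unadjusted p below 0.05 between the genotypes at P8, where 2.84% of the 2644 bound tested autosomal genes and 3.47% of all tested genes had one. The 61 bound members had a median difference of 0.03 log2 CPM, with 33 above 0 and 28 below in limma. The unbound ones had a median of -0.0013 and held 4 such genes among 282 tested, or 1.42%. Zfp341, with the highest score, was at 1.36, 1.46 and 1.01 log2 CPM in wild type and 1.44, 0.95 and 2.20 in null. Its groups overlapped, null replicate 3 was the highest, and the difference was 0.25 (SE 0.34), or -0.08 without that library. Zfp106 was at 7.64 ± 0.06 (wild type) and 7.69 ± 0.16 (null) log2 CPM (SD, n = 3) and Zfp260 at 6.94 ± 0.03 (wild type) and 6.84 ± 0.27 (null) log2 CPM (SD, n = 3). Zfp384 differed by 0.22 (SE 0.13), with all 3 null libraries above the wild-type ones and null replicate 3 the highest, and by 0.10 without it. Zfp523, the paralogue of Zfp143, was at 5.09, 5.26 and 5.14 in wild type and 5.34, 5.18 and 6.18 in null, and its difference of 0.41 became 0.10 without null replicate 3. Zfp191 and Zfp661 differed by -0.03 (SE 0.11) and -0.02 (SE 0.15), and by 0.07 and 0.03 without that library. Of the 16 members of smallest p, Zfp12 and Zfp367 had a peak within 1 kb, with scores of 53.2 and 122. Among all tested members 17.8% had such a peak, so a count this small shows no difference.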

How the data were processed

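The authors deposited 1 table of log2 CPM per gene for 6 RNA libraries and 1 peak list with a score per peak. The submitters' processing notes name STAR 2.3.0e, Bowtie2, Picard, edgeR and the build mm9, without roles. The file name gives MACS 1.4 and removal of duplicates for the peaks. No source used here gives the read counter, the annotation release or whether strand was used. Whole reads were recovered from the steps of 2 to the power of the deposited log2 values (100% whole at a tolerance of 1e-06). Genes with a mean of at least 0 log2 CPM were tested with limma-trend (limma 3.58.1, R 4.3.3), genotype as the only term, no added pseudocount, Benjamini-Hochberg adjustment and a threshold of 0.05, after the test had been checked on simulated data. Errors are model standard errors (SE) unless given as SD. Single values got no exact permutation test, since 0.1 is its smallest p with 3 libraries a group. Peak distances run from a peak's middle to the gene's 5' end. Positions are mm9 as in the files, except RefSeq promoter windows, which are GRCm38.p6 and were matched by symbol or, for 8 members, by gene ID, and 60 members had no window. Named genes were the 8 members of smallest p per direction, the 6 highest, the 4 most variable, the 8 of highest peak score, the highest and lowest of the 4 largest clusters and the role lists given in the report. The members, lists and motifs were chosen with earlier results of these data known. Alternatives were other scalings, voom, array weights, another pseudocount, other filters on low values, a replicate block, each library left out, and other windows, scores and gaps.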

Additional observations from a re-analysis of the deposited data

How the results depend on the processing

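The count of Zfp genes past the adjusted threshold in limma was 0 as reported and under all 14 alternatives, while 4 had an unadjusted p below 0.05. That last count was 2 with voom, 68 with array weights, 0 with the replicate block and 0 to 39 when 1 library was left out, the 39 without null replicate 2. The 68 were 19.8% of the tested members, beside 28.4% of all tested genes, and the 39 were 11.4%, beside 15.3%. The 2 with voom were 0.583%, beside 3.33%, and with the replicate block 2.12% of all tested genes had such a p. The array weight estimate did not converge and put 19.3 on null replicate 1. The replicate numbers do not pair the libraries: deviations of same-numbered libraries from their group means correlated at -0.09, -0.22 and -0.04 over 16634 genes. With the number as a block 2 genes of the whole table passed, against 1 without it, and the block took no other result of the report across the threshold but Dmrtb1. Dmrtb1 differed by -3.92 after quantile normalization, -3.83 after median centring, -4.46 with array weights and -3.78 both without a filter and with the replicate block, each past the threshold. Leaving out 1 library gave -4.00 to -3.45, past it only without null replicate 3 (-3.96). The adjusted p of Dmrtb1 ranged from 7.74e-05 to 0.289. Among the 20 members of smallest p or largest spread, 273 of 277 alternative values kept their direction and stayed short of the threshold. Zfp541 turned to -0.23 with array weights and ranged from -0.019 (null replicate 3 left out) to 0.82 (null replicate 1 left out). Zfp750 ranged from -0.41 (null replicate 2 left out) to 0.51 (null replicate 3 left out), and was -0.05 with wild-type replicate 2 left out. The cause was not tested. Bound members numbered 105 within 10 kb, 30 for scores of at least 100 and 25 for a peak over the 5' end itself (7.06%, 4.62 to 10.2, beside 5.77% of autosomal genes), against 61 as reported, since these settings take in more or fewer peaks. Clustered members numbered 142 at a gap of 100 kb and 201 at 500 kb, against 165. A gene with 0 reads could have up to 3, 0.103 to 0.126 CPM per library.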

Other observations

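DMRT6 peaks were also counted over whole gene bodies, a setting chosen after seeing the data. A peak middle lay between start and end of 70 of the 354 Zfp genes, 19.8% (exact binomial interval 15.8 to 24.3), beside 23.5% of all autosomal genes, and no allowance was made for gene length. Of the 11 Zfp genes below the level for testing 0 had a peak within 1 kb of the 5' end. The share was 6.37% in the lowest of the 5 groups of tested autosomal genes, so 0 of 11 shows no difference. Zfp957 had 2, 0 and 0 reads in the wild-type libraries and 2, 1 and 6 in the null ones. Zfp474 was uneven within a genotype: its reads numbered 0, 0 and 12 for wild type and 2, 24 and 2 for null.

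A cluster of 6 on chromosome 7 from 4866819 to 5005324 (mm9), Zfp628 to Zfp580, had 3 bound members, 0 of 4 matched promoters with the shared element and a median level of 2.47 log2 CPM. All 6 of its estimates were above 0, with a median difference of 0.25. Without null replicate 3, 4 of 6 were above 0 and the median was 0.15. This cluster was chosen after its values were seen.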
